A study of Arabidopsis thaliana with 6 samples.

Results

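Genes of flavonoid and proanthocyanidin synthesis in Arabidopsis thaliana were followed from young to old siliques, the seed pods of the plant, through 10 of the 22810 probe sets on the Affymetrix ATH1 array. The platform annotation names 5 of them by symbol, which are BAN, DFR, CHIL, UGT78D1 and UGT78D2. The other 5 were taken by probe set ID and are not named in that annotation: chalcone synthase (AT5G13930), chalcone isomerase (AT3G55120), F3H (AT3G51240), F3'H (AT5G07990) and FLS1 (AT5G08640). The identity of these 5 rests on that assignment, and all 10 loci are in the TAIR10.1 gene table, where chalcone synthase, chalcone isomerase and F3'H carry the symbols TT4, TT5 and TT7. The series asked how transcript levels change while siliques senesce. Each age is represented by 3 arrays, all from the accession Col-1, grown on compost in a glasshouse at 19 degrees with 24 hours of light a day. All 6 samples carry 1 tissue label, covering mature and senescing siliques, and 1 stage label, the shattering of the first silique. Young and old are told apart by the titles, and the labels do not record how pod age was set or whether pods were pooled.

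Flavonoids are made from an activated phenylpropanoid and malonyl units. Chalcone synthase joins these, chalcone isomerase closes the ring, F3H makes dihydroflavonols and F3'H adds a hydroxyl group to the outer ring. The path then divides. FLS1 turns dihydroflavonols into flavonols, to which UGT78D1 and UGT78D2 add sugars, while DFR reduces them towards anthocyanidins, which BAN, the anthocyanidin reductase, turns into the building blocks of proanthocyanidins. In Arabidopsis seeds, proanthocyanidins collect in the inner layer of the seed coat and brown it as the seed ripens, and mutants that lack them have pale, transparent testas.

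The values are signals, 1 for each probe set and array, on a linear scale. The deposited arrays had all been scaled to a trimmed mean of about 100, so a change shared by most transcripts would not show. The 40th percentile of the array's signals, between 24.3 and 36.5, served as the level under which a signal was taken as dim. The labels do not say that the replicates came from separate plants, so p-values measure only the spread between these samples, and the number of arrays limits the precision. Among control transcripts, the log2 ratio of the 3 prime to the 5 prime actin probe set was 3.05 to 3.19 on the young arrays and 3.40 to 3.79 on the old arrays. The same ratio overlapped between the groups for GAPDH and ubiquitin. The part of RNA quality in the results below was not tested.

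All 10 probe sets were above the percentile on every young array, and 8 of them fell in old pods by at least 8-fold in the fit. Chalcone synthase, CHIL, chalcone isomerase, F3H, F3'H, UGT78D1, DFR and BAN fell, FLS1 did not pass the test, and UGT78D2 did not pass either, with near equal signals in both groups. Across the 14277 probe sets tested, 12.3% were lower and 9.68% higher in old pods at a limma adjusted p under 0.05, and 1.87% were lower by at least 8-fold. Not all 8 stayed past that fold under other settings. Chalcone isomerase, 8.56-fold lower here, was 7.15-fold lower with arrays centred on their medians and 6.18-fold lower without young replicate 3. UGT78D1, dim on all old arrays, was at least 7.25-fold lower without young replicate 3. Without old replicate 2, F3H was 7.87-fold and F3'H 6.70-fold lower. None of the 10 rose. For 8 of the 10, every old signal lay below every young signal, as it did for 23.0% of all tested probe sets. The median log2 change of the 10 was -3.59, against -0.08 over all tested probe sets. In whole pods, a loss of the cells that hold a transcript and a loss of the transcript within those cells cannot be told apart.

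**Figure D1:**
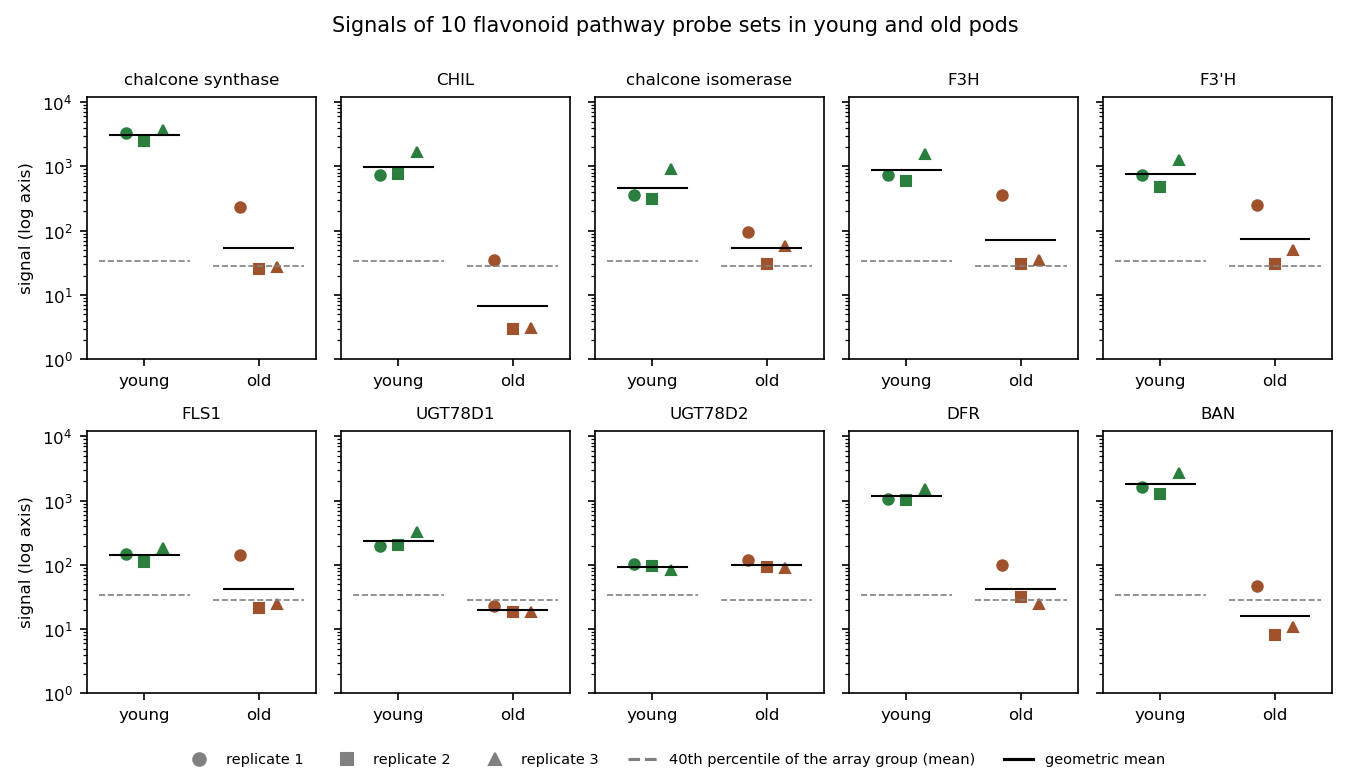
Signal of each of the 10 probe sets (vertical log axis) on the 3 young and 3 old arrays, in pathway order, with replicates 1, 2 and 3 as circles, squares and triangles. Solid lines are geometric means of 3 arrays and dashed lines the mean 40th percentile of the group's arrays. Young signals sit above old ones for 8 probe sets, FLS1 in old replicate 1 reaches its young signals, and UGT78D2 stays level.

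Chalcone synthase, the enzyme that commits carbon to flavonoids, gave signals of 3304, 2459 and 3635 on young arrays 1, 2 and 3 and of 234.3, 25 and 27.2 on the old arrays in the same order. The groups were far apart, and old replicate 1 was the highest of the old arrays. The fall was 57.0-fold (log2 change -5.83 with an SE of 0.78, limma adjusted p = 0.00236, 3 arrays in each group), and 119-fold without old replicate 1. That larger fold rests on old signals of 25 and 27.2, which lay at about the percentiles of 25.2 and 24.3. Among all probe sets of an array, chalcone synthase ranked at 99.6% to 99.9% on the young arrays and at 87.4%, 39.8% and 42.3% on the old arrays. CHIL, a chalcone isomerase-like protein that has no known enzyme activity of its own and raises flavonoid output, gave 747.4, 775.4 and 1682 in young pods and 34.5, 3.0 and 3.1 in old pods. None of its old signals was above the percentile of the array, with old replicate 1 exactly at it. Its fall is therefore a bound, at least 35.9-fold, and between at least 27.5-fold and at least 41.3-fold with any 1 array left out. The limma adjusted p was 0.00178 in the fit without raising (log2 change -7.18) and 6.2e-05 with dim signals raised to the percentile. Raising set the old signals to the percentile, so the smaller p does not measure their spread. CHIL qualified for testing through its young arrays alone, where it was high, so neither p-value adds to the bound.

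Chalcone isomerase gave 364.4, 313.9 and 899.3 in young pods and 95, 30.1 and 57.4 in old pods. Its old signals were all above the percentile, though old replicate 2 was close to it, at 30.1 against 25.2. The fall was 8.56-fold (log2 change -3.10 with an SE of 0.51, limma adjusted p = 0.00489, 3 arrays in each group). Its log2 change stayed between -3.49 and -2.63 with any 1 array left out, and it passed each time.

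F3H, the hydroxylase that makes dihydroflavonols, gave 746.6, 589.7 and 1555 in young pods and 364.1, 30.3 and 34.4 in old pods. Old replicate 1 kept 37.8% of the young mean, while old replicates 2 and 3 kept 3.14% and 3.57%. The fall was 12.2-fold (log2 change -3.61 with an SE of 0.90, limma adjusted p = 0.0254, 3 arrays in each group). F3'H, a cytochrome P450 of the CYP75B family, gave 734.2, 475.5 and 1243 in young pods and 253.7, 30.4 and 50.4 in old pods. It had the same order of old arrays, with 31.0%, 3.72% and 6.16% of the young mean. Its fall was 10.4-fold (log2 change -3.37, SE 0.73, limma adjusted p = 0.0151).

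Neither hydroxylase call was stable to leaving out arrays. The F3H call ended without young replicate 2 or 3 or old replicate 2 or 3 (limma adjusted p = 0.0539, 0.0787, 0.0937 and 0.0869), and the F3'H call without young replicate 3 or old replicate 2 or 3 (limma adjusted p = 0.0506, 0.0536 and 0.0584). Without old replicate 1 the falls were 27.3-fold for F3H and 19.3-fold for F3'H, and without old replicate 2 they were 7.87-fold and 6.70-fold.

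In the flavonol branch the 3 genes did not move alike. FLS1, the main flavonol synthase, gave 146.0, 111.6 and 181.3 in young pods and 140.6, 21.2 and 25 in old pods. The groups overlapped, because old replicate 1 lay within the young range, and old replicate 2 was under the percentile. The log2 change was -1.77 with a 95% interval from -3.30 to -0.24 for this probe set alone, and it did not pass across the array (SE 0.66, limma adjusted p = 0.0944, 3 arrays in each group). Without old replicate 1 it passed, 6.23-fold lower (limma adjusted p = 0.000774), as it did in replicates 2 and 3 alone, 6.18-fold lower (adjusted p = 0.00101). With a batch term for replicate 1 it passed with the same log2 change of -1.77 (limma adjusted p = 0.0360). With any 1 array other than old replicate 1 left out, FLS1 did not pass (limma adjusted p from 0.151 to 0.274). It was 2.42-fold lower without old replicate 2. The 6.23-fold and 6.18-fold values rest on old signals of 21.2 and 25, near the percentiles of 25.2 and 24.3.

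UGT78D1, which adds rhamnose to flavonols, gave 194.3, 206.7 and 323.8 in young pods and 22.8, 18.5 and 18.6 in old pods. All old signals were under the percentile, so their order has no meaning. The fall was at least 8.51-fold (log2 change as fitted -3.56 with an SE of 0.26, limma adjusted p = 0.000349, 3 arrays in each group). With young replicate 3 left out it was at least 7.25-fold. UGT78D1, like CHIL, qualified for testing through its young arrays alone, so its p-value does not add to the bound. UGT78D2, its paralog, which adds glucose to flavonols and anthocyanidins, gave 103.2, 95 and 82.4 in young pods and 120.5, 91.6 and 89.7 in old pods. The groups overlapped, every signal was above the percentile, and the ranks within the array were 62.5% to 69.4% in young and 67.5% to 74.0% in old pods. The log2 change was 0.10 with a 95% interval from -0.38 to 0.57 (SE 0.21, limma adjusted p = 0.772), and it was -0.039 without old replicate 1.

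Towards proanthocyanidins, DFR gave 1045, 1016 and 1523 in young pods and 100.3, 32 and 24.3 in old pods. Every young signal was far above every old one, and DFR was still above the percentile on old arrays 1 and 2. In replicate pairs 1, 2 and 3 DFR was 10.4-fold, 31.8-fold and 62.7-fold lower in the old sample. The fitted log2 change was -4.78 (SE 0.49, limma adjusted p = 0.000863, 3 arrays in each group), a 27.5-fold fall, or 42.1-fold without old replicate 1. BAN gave 1657, 1289 and 2715 in young pods and 46.8, 8.2 and 10.7 in old pods. Old replicates 2 and 3 were under the percentile, and the lowest young signal was 27.5 times the highest old one. BAN was 35.4-fold, 157-fold and 254-fold lower in the old sample of pairs 1, 2 and 3. The fitted fall was 112-fold (log2 change -6.81, SE 0.62, limma adjusted p = 0.00057), 58.7-fold with dim signals raised to the percentile, and 192-fold without old replicate 1. The 157-fold, 254-fold and 192-fold values rest on old signals under the percentile alone, so their size cannot be read.

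Old replicate 1 was the highest old array for all 10 probe sets, against 39.1% of all tested probe sets. For CHIL and UGT78D1 that order rests on signals that were not above the percentile. Relative to the mean of old replicates 2 and 3 on the log2 scale, it was 11.3-fold higher for F3H, 8.98-fold for chalcone synthase, 6.48-fold for F3'H and 6.11-fold for FLS1. For DFR it was 3.60-fold higher, for chalcone isomerase 2.29-fold and for UGT78D2 1.33-fold. With dim signals raised to the percentile, a setting added after seeing the data, chalcone synthase stood at 8.95-fold and FLS1 at 5.60-fold. BAN, with 1 old signal above the percentile, went from 5.00-fold to 1.89-fold. CHIL and UGT78D1 had none above it, so no such ratio is given for them. Among young arrays, replicate 3 was the highest for 9 of the 10, UGT78D2 being the exception, against 34.9% of all tested probe sets. The median log2 change of the 10 was -2.52 in the replicate 1 pair, -4.12 in pair 2 and -5.06 in pair 3. Over all tested probe sets these medians were -0.06, -0.07 and -0.11. The hybridisation controls were also brighter on both replicate 1 arrays, with mean log2 signals of 9.40 and 9.52 against 7.66 to 8.29 on the others. The part of this in the results was not tested. Scaling on these controls left 8 of the 10 called. That scaling cannot decide the question, because it moved every log2 change by the same small amount, -0.022.

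**Figure D2:**
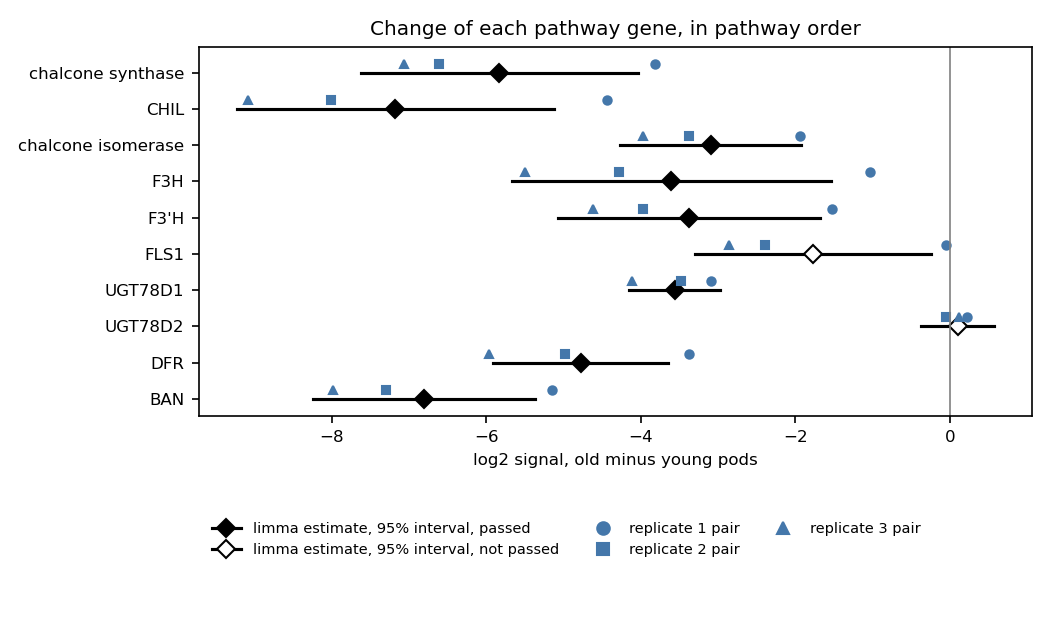
Log2 signal in old minus young pods (horizontal axis) for each pathway gene, listed in pathway order. Diamonds are limma estimates from 3 arrays per group with 95% intervals, filled where the adjusted p was under 0.05, and small symbols are the differences within replicate pairs 1, 2 and 3. The replicate 1 pair shows the smallest fall for the 8 genes that passed.

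To compare members with each other, the log2 ratio of 2 probe sets was taken within each array for 6 chosen pairs. Such a ratio does not depend on how an array was scaled. Its height depends on the probes, so only its change can be read. An exact two-sided permutation test over the 20 assignments of 3 against 3 arrays cannot go below 0.1, and no pair could pass. For 5 of the 6 pairs the young and old ratios did not overlap, each with an exact permutation p = 0.1 (0.12 after Benjamini-Hochberg adjustment over the 6).

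UGT78D1 over UGT78D2 gave log2 ratios of 0.91, 1.12 and 1.97 in young pods and -2.40, -2.31 and -2.27 in old pods. The change was -3.66, or -3.19 with dim signals raised to the percentile, and every old ratio lay below every young one. UGT78D1 was under the percentile on all old arrays, so the spread among the old ratios cannot be read. DFR over FLS1, the pair at the branch point, gave 2.84, 3.19 and 3.07 in young pods and -0.49, 0.59 and -0.04 in old pods. The ratio of these 2 genes was 8.06-fold lower in old pods, without passing, and it was below the young ratios in old replicate 1 too, where FLS1 lay within its young range. With dim signals raised the change was -3.09. In old replicates 2 and 3 DFR (32 and 24.3) and FLS1 (21.2 and 25) both lay near the percentiles of 25.2 and 24.3. The size of the change there is limited by dim signals.

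Along the proanthocyanidin branch, BAN over DFR changed by -2.03, from a mean of 0.61 ± 0.25 (SD, n = 3 arrays) to -1.42 ± 0.48, but by -1.10 with dim signals raised. At the entry, CHIL over chalcone isomerase changed by -4.08, from 1.08 ± 0.20 to -3.0 ± 1.40, and by -2.07 with dim signals raised. Without old replicate 1 that change was -4.85, and without old replicate 3 it was -3.48. The size of both changes thus rests in part on signals under the percentile. F3H over chalcone synthase was higher in all 3 old samples, by 2.23 on average, from -1.81 ± 0.51 to 0.42 ± 0.19, and by 2.22 with dim signals raised. In old replicates 2 and 3 F3H (30.3 and 34.4) and chalcone synthase (25 and 27.2) both lay near the percentiles of 25.2 and 24.3. Dim signals thus limit the size of this change too. F3'H over F3H overlapped between the groups, at -0.22 ± 0.17 in young and 0.01 ± 0.54 in old pods (exact permutation p = 0.6).

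**Figure D3:**
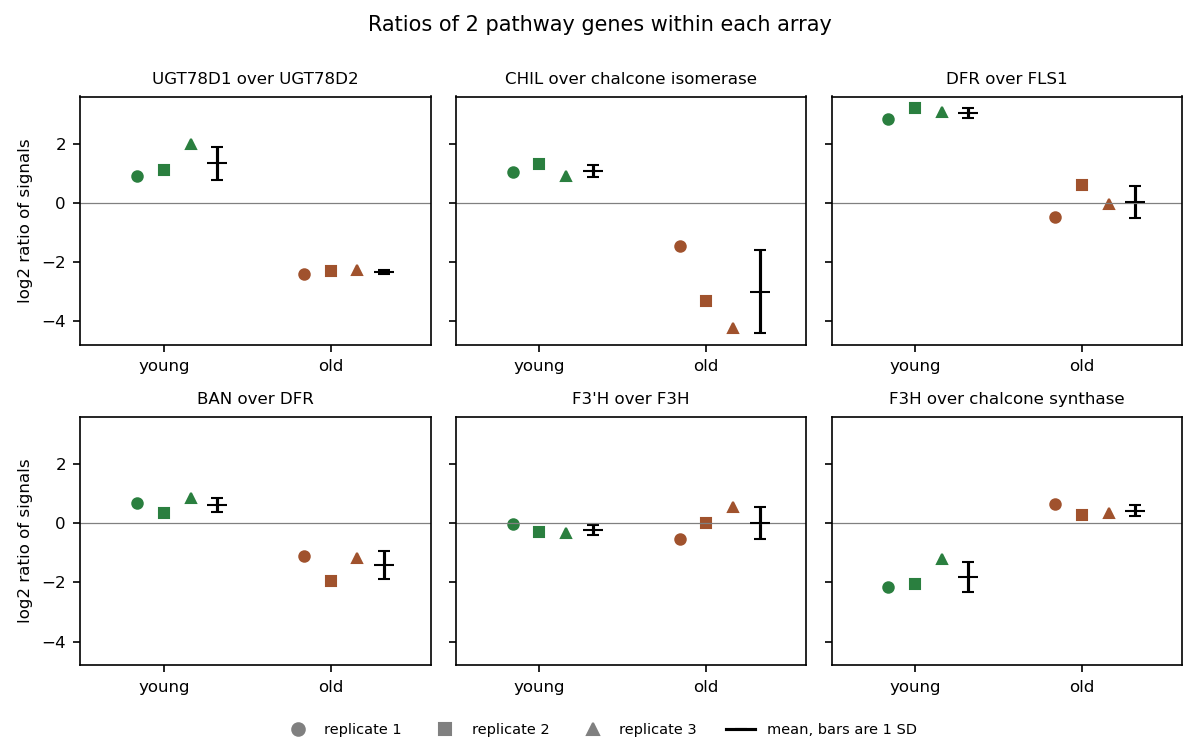
Log2 ratio of the signals of 2 pathway genes within each array (vertical axis) for 6 pairs, with young and old arrays side by side, replicates as circles, squares and triangles, and black marks for the mean with bars of 1 SD. The groups separate in 5 of the 6 panels and overlap for F3'H over F3H, and the 3 old ratios of UGT78D1 over UGT78D2 lie between -2.40 and -2.27 with UGT78D1 under the percentile.

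Few other genes of the pathway could be assessed by name. Of 9 genes that feed the pathway, from phenylalanine ammonia-lyase to the coumarate ligases, and of 24 regulators, the TT2, TT8 and TTG1 complex and the MYB12 group among them, none had a probe set naming it alone. LDOX, the anthocyanidin synthase between DFR and BAN, was likewise not analysed here. Of 11 further flavonoid enzymes 5 had a named probe set and none was bright enough to be tested. UGT78D3, a close relative of UGT78D1 and UGT78D2, stayed between 2.8 and 10.2 on all arrays. UGT75C1 (locus AT4G14090) stayed between 1.3 and 5.2. AT5MAT, an anthocyanin malonyltransferase, gave 11.2, 2.7 and 4.7 in young pods and 57.9, 15.1 and 11.8 in old pods. UGT89C1 (locus AT1G06000) gave 6.8, 1.6 and 0.7 in young pods and 90.3, 9.6 and 7.0 in old pods. For both, old replicate 1 alone was above the percentile. UF3GT, an anthocyanin glycosyltransferase, was above it on young array 1 alone, at 55.9.

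UGT80B1, a sterol glucosyltransferase whose loss gives a transparent testa, was the 1 gene of 7 for transport and deposition with a named probe set. Its signals were 120.3 to 136.2 in young and 109.1 to 121.5 in old pods, and it did not pass (log2 change -0.20, SE 0.17, limma adjusted p = 0.435). Of 11 genes in the competing lignin and sinapate branches 2 were tested, 1 lower and 1 not passed. HCT, which draws the same activated phenylpropanoid towards lignin, gave 983.6, 877.1 and 988.5 in young and 491.3, 308.7 and 511.2 in old pods, a 2.22-fold fall (SE 0.23, limma adjusted p = 0.0117). That call ended when arrays were scaled on the hybridisation controls, with a fold as large (2.26-fold lower, limma adjusted p = 0.997). ALDH2C4, the dehydrogenase that makes sinapate and ferulate, gave 542.3, 389.3 and 349.3 in young and 573.7, 731.0 and 827.6 in old pods, without overlap and without passing (log2 change 0.74, limma adjusted p = 0.0578). It passed without replicate 1 of either group (young, adjusted p = 0.0315; old, adjusted p = 0.0376) and with arrays centred on their medians (limma adjusted p = 0.0429).

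Markers of the seed coat, where proanthocyanidins are made, were lower in old than in young pods. Of 14 seed coat genes listed, 3 had a named probe set, 2 were tested and both fell, and none of the 3 was at 0 on any array. Their summed signal was 4478 to 5598 in young pods and 325.4 to 535.2 in old pods. DELTA-VPE, a processing protease of the inner seed coat, gave 2282, 2444 and 3758 in young pods and 181.2, 41.3 and 29.7 in old pods, a 45.5-fold fall (SE 0.61, limma adjusted p = 0.00118). Old replicate 1 was again the highest old array, and without it the fall was 78.7-fold, against 31.9-fold without old replicate 3. ARA12, a subtilase needed for release of seed coat mucilage that other organs also express, fell 5.30-fold (limma adjusted p = 0.000597), with old signals of 337.5, 281.5 and 444.2. Its call ended when arrays were scaled on the hybridisation controls, with a fold as large (5.38-fold lower, limma adjusted p = 0.0906). PER36 (locus AT3G50990), a peroxidase of the outer seed coat, gave 762.3, 384.7 and 13.2 in young pods and 16.5, 2.6 and 3.4 in old pods, with 2 signals above the percentile, and was not tested.

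Of 17 embryo and storage genes, 2 had a named probe set. The storage protein PAP85 rose at least 16.1-fold (limma adjusted p = 0.0122 in the fit without raising, 0.0190 with dim signals raised). PAP85 qualified for testing through its old arrays alone, where it was high, so these p-values do not add to the bound. It gave 3701 in old replicate 1 against 214.9 and 210.1 in old replicates 2 and 3. Old replicate 1 carried much of that bound, which dropped to 6.21-fold when it was left out and was 25.8-fold or 26.1-fold when old replicate 2 or 3 was. The oleosin OLEO3, a coat protein of oil bodies, gave 1099, 536.4 and 158.4 in young and 2219, 178.7 and 262.6 in old pods, which overlap. Old replicate 1, the old sample with the most flavonoid signal, had the highest old signal of both seed genes. The young arrays did not share that order: replicate 3 was the highest for 9 of the 10 pathway probe sets and the lowest for OLEO3. PAP85 was under the percentile on all young arrays, so its young order cannot be read. The pod tissue itself was represented by 3 of 9 listed valve margin genes: ADPG1, a polygalacturonase of pod opening, rose from 45.1 to 102.2 in young pods to 901.1 to 1248 in old pods, while ALC and SPT did not pass (log2 change -0.24 and 0.27). Old replicate 1 was also the highest old array for SPT, DELTA-VPE and PER36, but not for ADPG1, ALC or ARA12. The same held for 39.1% of all tested probe sets. The part of seed coat, embryo or valve content in the flavonoid results was not tested.

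**Figure D4:**
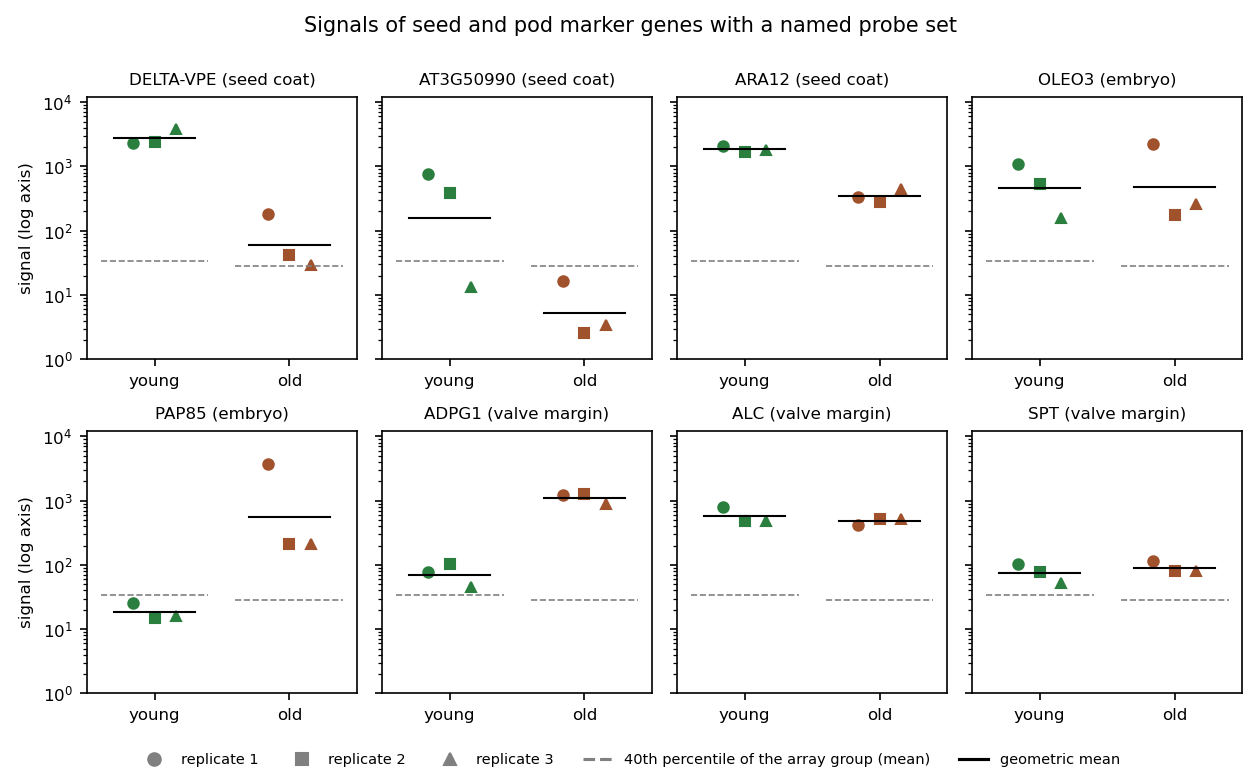
Signals (vertical log axis) of the 8 seed coat, embryo and valve margin genes with a named probe set on the 3 young and 3 old arrays, drawn as in the plot of the pathway genes. DELTA-VPE and ARA12 are lower and ADPG1 and PAP85 higher on all old arrays, and old replicate 1 stands above the other old arrays for DELTA-VPE, PER36, OLEO3, PAP85 and SPT.

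Likeness of pattern was measured as the root mean squared difference between log2 signals centred on each probe set's mean over the 6 arrays, a description in which the difference between the groups weighs most. Among the members, CHIL was nearest to BAN (0.47), followed by chalcone synthase (0.60) and DFR (1.06), with FLS1 at 2.53 and UGT78D2 farthest at 3.54. Of the 14267 other tested probe sets, 2 lay nearer to BAN than CHIL did. Among non-members with a symbol, the nearest to BAN were the thiol reductase gene GILT (0.61), DELTA-VPE (0.71), the ubiquitin-conjugating enzyme gene UBC31 (0.86), TOPII, a topoisomerase (1.36), and the wax ester synthase WSD1 (1.49). DELTA-VPE was nearest to chalcone synthase of all non-members (0.40), followed among those with a symbol by UBC31 (0.56), GILT (0.77), TRM22 (0.97) and TOPII (1.03). All these distances rest in part on dim signals. CHIL, UBC31, TOPII, WSD1 and TRM22 had no old signal above the percentile, BAN had 1 of 3, and chalcone synthase and GILT had 2 of 3.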

How the data were processed

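Arabidopsis silique RNA on 6 ATH1 arrays was deposited as linear intensity values, 1 signal per probe set, which per the submitters' processing notes came from MAS5. The sources used here do not give its version or any detection calls. Signals under 0.1 were set to 0.1 and taken as log2. Testing required signals exceeding the 40th percentile of their array in 3 or more of the 6 arrays, which kept 14277 probe sets, all 10 pathway probe sets among them. The fit of old against young used lmFit and eBayes with a variance trend (limma 3.58.1, R 4.3.3), without further normalization, on all 6 arrays. Adjusted p-values are Benjamini-Hochberg over all tested probe sets, two-sided, with a threshold of 0.05, and the fit was tested on simulated data. "At least" folds compare the brighter group's mean log2 signal with a dimmer-group mean in which each signal under its percentile was raised to it. List genes were matched by gene number through TAIR10.1, and the brightest probe set of a gene was used.

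Deviations from group means correlated at 0.286, 0.113 and 0.119 in replicate pairs 1, 2 and 3, all above 0.1, which was the level set for taking the numbers as pairing the samples. The fit and the ratio test were nevertheless made without the pairing, so the p-values printed in the results do not use it. A fit with the replicate number as a block was an alternative and changed no call among the 10. Members, lists and tests were chosen with earlier results of these data known. The text names all 10 members, tested genes of the pathway lists, called seed and valve markers, and the 5 genes with a symbol nearest to BAN and to chalcone synthase. OLEO3, ALC, SPT and the dim genes named lie outside that rule.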

Additional observations from a re-analysis of the deposited data

How the results depend on the processing

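Of the 10 pathway genes, 8 stayed lower past the threshold under quantile normalization, median centring, hybridisation control scaling, no filter, raised dim signals, no variance trend and the replicate block, and 9 (with FLS1) under the batch term or in replicates 2 and 3 alone. With 1 array left out the count was 6 to 9, through F3H, F3'H and FLS1, and none was higher under any setting. Counts over all tested probe sets moved far more. The 1763 lower became 1138 with median centring and 372 with hybridisation control scaling, and 932 to 2129 with 1 array left out. The 1382 higher became 256 with hybridisation control scaling and 720 to 1473 with 1 array left out. The replicate block gave 1964 lower and 1516 higher and changed no call among the 10. Median centring moved the median of all log2 changes by 0.26, and the higher share of calls from 43.9% to 62.4%; UGT78D2 was then at 0.36. The cause of these shifts was not tested.

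Signs turned only for values that had not passed: UGT78D2 (-0.039 without old replicate 1; -0.039 to 0.17 with 1 array left out), OLEO3 (-0.040 after quantile normalization, -0.43 in replicates 2 and 3, -0.71 without young replicate 3, and -1.07 to 0.75 with 1 array left out), ALC (0.018 with median centring, 0.10 in replicates 2 and 3), UGT80B1 (0.056 with median centring), and the ratio of F3'H to F3H (changes of -0.039 to 0.50 with 1 array left out). Depth of signal most limits CHIL, UGT78D1 and BAN, whose old signals were mostly not above the percentile. It also limits chalcone synthase, FLS1 and DFR, with 2 of 3 old signals above it. F3H and F3'H, at 30.3 and 30.4 in old replicate 2, lay close to that array's percentile of 25.2.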
